A study of Mus musculus with 18 samples.

Results

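The proteasome genes described here are the 52 of 15137 gene symbols in the deposited table taken by a rule on names, and all but Psmc3ip name a subunit, activator, inhibitor or assembly factor of the proteasome. The rule took symbols that start with Psma, Psmb, Psmc, Psmd, Psme, Psmf or Psmg followed by a digit, with Pomp, Adrm1 and Sem1, and without pseudogene symbols. Their RNA was measured in 18 libraries of naive CD4+ T cells, all sorted from spleen by surface markers and all on the C57BL/6J background. The cells came from control mice or from mice carrying the Creld1 conditional knockout, called Creld1cKO in the labels and cKO here. For each genotype there were 3 libraries from cells used directly after the sort (fresh), 3 from cells kept for 8 h in IMDM-based medium without stimulus (unstimulated), and 3 from cells kept for 8 h with anti-CD3 and anti-CD28 antibodies at 1 µg/ml (stimulated). The sources used here do not name the Cre driver of the knockout. All 3 libraries of a group carry 1 mouse number, so each p-value below is set against the spread among libraries that may be technical replicates, and against nothing wider. The number differs from group to group. A difference by culture, stimulation or genotype therefore cannot be told apart from a difference between the mice so numbered.

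The proteasome degrades proteins that carry ubiquitin chains. Its barrel, the 20S core, is built of rings of alpha and beta subunits, and a few of the beta subunits hold the proteolytic sites. The 19S cap recognises ubiquitin, removes it, unfolds the substrate with a ring of ATPases and feeds it into the core. In lymphocytes, and in other cells after interferon, the catalytic subunits encoded by Psmb5, Psmb6 and Psmb7 are replaced in newly built cores by those of Psmb8, Psmb9 and Psmb10, which gives the immunoproteasome, a source of peptides for MHC class I. Psme1 and Psme2 encode the 11S activator PA28, which binds the end of the core in place of the 19S cap.

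The values are normalized and on a log2 scale, so a difference of 1 is a doubling, and the depth behind them is unknown. Transcripts of T cell markers (Cd3e, Cd3d, Cd4 and Ccr7) had mean log2 values between 11.5 and 12.7, while Cd8a, Lyz2, Csf1r, Ncr1 and the haemoglobin genes stayed below the minimum used for testing (a linear value of 10 in at least 3 libraries). Cd8b1, a marker of CD8 T cells, reached that minimum with a mean of 6.41, as did Cd79a at 4.29 and Cd74 at 4.39, which mark B cells and other antigen-presenting cells. The regulatory T cell markers Foxp3, Ikzf2, Il2ra and Ctla4 all reached it too. Creld1 itself lay between 4.33 and 4.85 in fresh control and 3.70 and 4.40 in fresh cKO libraries, between 4.81 and 5.40 and 3.82 and 4.33 after unstimulated culture, and between 4.41 and 5.10 and 4.14 and 4.62 after stimulation. The genotypes overlapped in fresh and stimulated cells, and the table does not separate deleted from retained exons. Libraries also differed in how their values depend on the GC content of a transcript. This GC slope (the change in a library's log2 deviation per SD of transcript GC content) ran from -0.31 to 0.16 among the fresh cKO libraries, the widest range of the 6 groups, with replicate 3 at the top and replicate 2 at the bottom.

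All 52 proteasome genes passed the minimum, and together they made up between 0.354% and 0.391% of the summed linear values of a library. Levels between genes are compared here on the log2 scale per kilobase of transcript, as means of the 3 fresh control libraries. The length is that of 1 transcript per gene, and the normalization is unknown, so the order of genes may depend on this choice. The PA28 genes were highest, Psme1 at 10.23 and Psme2 at 10.18. The 20S alpha genes ran from 7.95 (Psma3) to 9.31 (Psma7), the constitutive beta genes from 7.68 (Psmb5) to 9.34 (Psmb4), and the 19S ATPase genes within the narrow band of 8.34 (Psmc4) to 8.60 (Psmc3). Of the immunoproteasome genes, Psmb8 stood at 9.34, Psmb9 at 8.95 and Psmb10 at 7.31. Assembly factors other than Pomp were lower, among them Psmg3 at 5.31 and Psmd9 at 5.22, which help to build the core and the cap base. Pomp, the maturation factor enclosed in the nascent core, stood at 8.07, within the range of the 20S genes. Psmf1, the inhibitor PI31, stood at 6.07. Psmb11, which replaces Psmb5 in cortical thymic epithelium, stood at 1.14 and reached the minimum in only 3 of 18 libraries. Psmc3ip fits the symbol rule but encodes a cofactor of meiotic recombination, and it stood at 3.80.

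**Figure D1:**
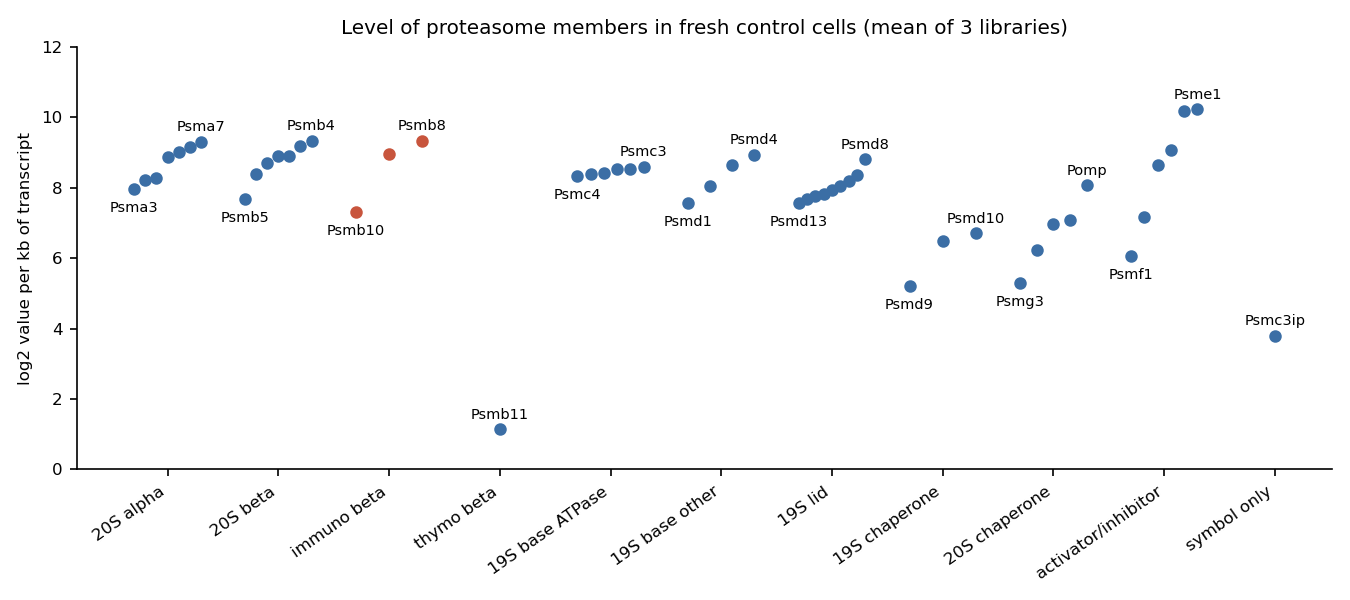
Levels of the 52 proteasome genes in fresh control cells, as log2 value per kilobase of transcript (vertical axis, mean of 3 libraries), grouped by role along the horizontal axis. Psme1 at 10.23 is highest, the 3 immunoproteasome genes (red) lie between 7.31 and 9.34, and Psmb11 at 1.14 is lowest.

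Unstimulated culture was compared with the fresh state within each genotype, to see how these genes differed after 8 h outside the mouse. In control cells 12 of the 52 genes passed an adjusted p of 0.05 (limma, Benjamini-Hochberg over 10877 genes), 1 higher and 11 lower, or 23.1% of the members beside 29% of all genes tested. In cKO cells 10 passed, 1 higher and 9 lower, or 19.2% beside 22.1%. The share of proteasome genes called was thus near the background in both genotypes. Among all genes, however, 14.9% were called higher and 14.1% lower in control cells, and 10.7% and 11.4% in cKO cells, while all called proteasome genes but 1 were lower. Over all 52 genes, called or not, the difference was above 0 for 25 and below 0 for 27 in control cells (median -0.02, beside 0.04 over all genes), and above 0 for 11 and below 0 for 41 in cKO cells (median -0.16, beside -0.02). The comparisons in the 2 genotypes share no libraries, but both use the spread of each gene within groups over all libraries. Their calls are therefore not independent. Psma2, Psmb4, Psmd6, Psmd14, Psme1 and Psme2 fell in both, which is 54.5% of the genes called lower in control cells and 66.7% of those in cKO cells, beside 62.4% and 76.8% for all genes. Psmd7 was the gene that rose in both. Here and below, genes other than the catalytic ones were picked because they were called or had a small p. A lack of overlap between their groups follows in part from that choice and adds no support. In bulk RNA, fewer cells of a type and less RNA per cell cannot be told apart.

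The one gene that rose, Psmd7, encodes Rpn8, the lid subunit that pairs with the deubiquitinase Rpn11. Its log2 values were 8.55, 8.63 and 8.64 in fresh control libraries and 8.97, 8.93 and 9.09 after unstimulated culture. In cKO libraries they were 8.57, 8.59 and 8.52 fresh and 8.86, 8.94 and 8.89 after culture. Every cultured library lay above every fresh one, and the stimulated libraries, between 8.85 and 9.03, lay above the fresh ones as well. The difference was 0.39 ± 0.07 (SE) in control cells (adjusted p = 0.0004485, limma) and 0.34 ± 0.07 in cKO cells (adjusted p = 0.001489, limma), about 1.31-fold and 1.27-fold.

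Its partner moved the other way. Psmd14 encodes Rpn11, which cuts ubiquitin chains from substrates as they enter the cap. Its values fell from 8.99, 8.72 and 8.70 in fresh control libraries to 8.37, 8.28 and 8.31 after culture, and from 9.20, 9.26 and 8.67 to 8.51, 8.53 and 8.61 in cKO libraries. The fresh and unstimulated groups did not overlap in either genotype, with fresh cKO replicate 3 closest to the unstimulated libraries. The differences were -0.49 ± 0.14 (adjusted p = 0.01448, limma) in control cells and -0.49 ± 0.14 (adjusted p = 0.01561, limma) in cKO cells. Unlike for Psmd7, the stimulated control libraries overlapped the fresh ones, with stimulated replicate 3 at 8.72 above fresh replicate 3. The stimulated cKO libraries, up to 8.54, lay below the fresh cKO ones. Psmd6, the lid subunit Rpn7, went from 8.97, 8.71 and 8.79 to 8.43, 8.34 and 8.49 in control libraries and from 8.97, 9.10 and 8.62 to 8.59, 8.41 and 8.45 in cKO libraries, again without overlap. Its differences were -0.41 ± 0.12 in both genotypes (adjusted p = 0.02249 in control and 0.0242 in cKO cells, limma).

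Of the 9 lid genes, 4 were called in control cells (44.4%, beside 29% of all genes) and 5 in cKO cells (55.6%, beside 22.1%). Besides the 3 genes above, Psmd12 (Rpn5) fell by 0.28 in control cells (adjusted p = 0.04196, limma), while Psmd13 (Rpn9) and Sem1 fell in cKO cells. Sem1 encodes a small acidic subunit that tethers lid subunits during assembly and also serves BRCA2. Its fresh cKO values of 8.69, 8.71 and 8.67 lay above those after unstimulated culture, 8.17, 8.21 and 8.19, a difference of -0.50 ± 0.08 (adjusted p = 0.0003946, limma). In control libraries Sem1 stood at 8.42, 8.31 and 8.41 fresh and at 8.13, 8.37 and 8.50 after culture, so the groups overlapped, with a difference of -0.05 ± 0.08. The test of whether culture acted differently on Sem1 in the 2 genotypes gave -0.45 and did not pass (adjusted p = 0.843, limma). No proteasome gene passed that test, and neither did any of the 10877 genes (0%). Without adjustment, 5 of the 52 proteasome genes had a p under 0.05, or 9.62%, beside 5.01% of all genes tested.

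In the 20S core, 1 of 7 alpha genes and 1 of 7 constitutive beta genes fell in both genotypes. No other gene of either kind was called, so the share was 14.3% for each, beside 29% and 22.1% of all genes. Psma2 went from 9.89, 9.77 and 9.75 in fresh control libraries to 9.39, 9.31 and 9.42 after culture, and from 9.96, 10.15 and 9.67 to 9.49, 9.56 and 9.52 in cKO libraries. Psmb4, a beta subunit without a catalytic site, went from 9.53, 9.60 and 9.60 to 9.08, 9.31 and 9.39 and from 9.58, 9.51 and 9.56 to 9.22, 9.29 and 9.07. Neither gene overlapped between fresh and cultured libraries of a genotype. Psma2 differed by -0.44 ± 0.10 (adjusted p = 0.003526, limma) in control cells and by -0.40 ± 0.10 (adjusted p = 0.006663, limma) in cKO cells. The differences of Psmb4 were -0.32 ± 0.08 and -0.35 ± 0.08 (adjusted p = 0.008436 and 0.005126, limma). The other 6 alpha genes lay between -0.18 and 0.07 in control cells and between -0.25 and 0.05 in cKO cells, none past the threshold.

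Both genes of PA28 fell as well. Psme1, for the alpha subunit, went from 10.43, 10.37 and 10.35 to 9.98, 9.95 and 10.21 in control libraries and from 10.67, 10.65 and 10.33 to 10.15, 10.07 and 10.09 in cKO libraries. Psme2, for the beta subunit, went from 10.06, 10.16 and 10.15 to 9.60, 9.60 and 9.66 and from 10.20, 9.91 and 10.00 to 9.73, 9.79 and 9.70. All fresh libraries lay above the cultured ones of their genotype. In control cells Psme1 differed by -0.34 ± 0.10 and Psme2 by -0.50 ± 0.10 (adjusted p = 0.01616 and 0.001431, limma). In cKO cells the differences were -0.45 ± 0.10 and -0.30 ± 0.10 (adjusted p = 0.003498 and 0.04093, limma). Psme2b, a copy of Psme2 on chromosome 11, did not pass in either genotype (-0.06 and 0.08). The sources used here do not say how reads were divided between the 2 copies. Psme3, for the nuclear activator PA28 gamma, fell by 0.37 in control cells (adjusted p = 0.03022, limma) and was 0.10 lower without passing in cKO cells. Of the 6 activator and inhibitor genes, 3 were thus called in control cells (50%, beside 29% of all genes). In cKO cells 2 were called (33.3%, beside 22.1%).

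Of the 6 ATPases of the cap base, Psmc6 (-0.39, adjusted p = 0.03308, limma) and Psmc3 (-0.21, adjusted p = 0.0297, limma) fell in control cells. That is 33.3% of them, near the 29% of all genes. None of the 6 passed in cKO cells, beside 22.1% of all genes. The 4 other base genes, which include the ubiquitin receptors Psmd4 and Adrm1, passed in neither genotype, beside the same shares of all genes. Of the 5 core assembly genes, 1 was called in each genotype (20%, beside 29% and 22.1% of all genes). Psmg1 fell in control cells (-0.35, adjusted p = 0.04027, limma). Psmg4 fell in cKO cells (-0.58 ± 0.18, adjusted p = 0.03076, limma), from 5.54, 5.41 and 5.60 to 5.00, 4.82 and 4.98. In control libraries Psmg4 stood at 5.14, 5.40 and 5.62 fresh and at 5.26, 5.41 and 5.89 after culture, with the groups overlapping. The 3 cap chaperone genes, Psmd5, Psmd9 and Psmd10, did not pass in either genotype, again beside 29% and 22.1% of all genes.

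**Figure D2:**
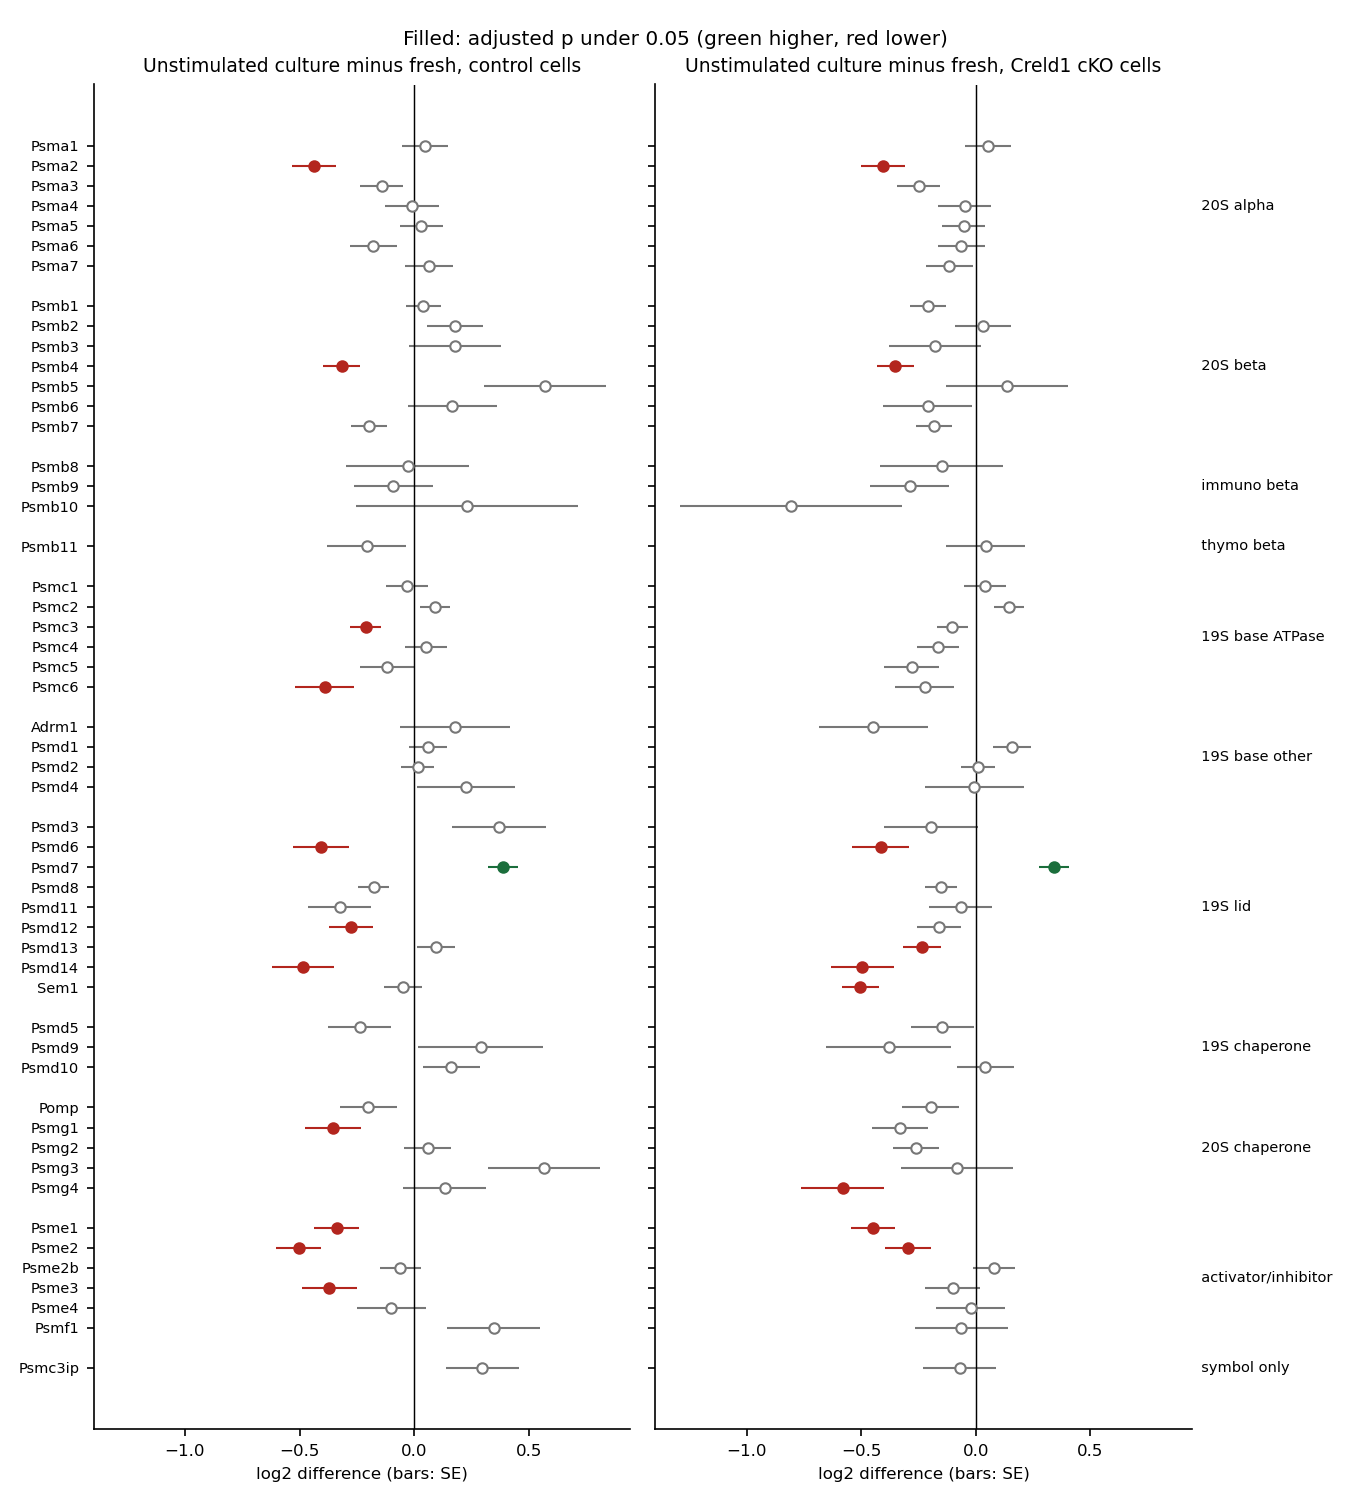
Difference between unstimulated culture and fresh cells for each of the 52 proteasome genes (horizontal axis, log2, with the SE as bars), in control cells on the left and cKO cells on the right, ordered by role. Filled points passed an adjusted p of 0.05, and Psmd7 is the filled point above 0 in both panels, at 0.39 and 0.34.

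These counts depended on the groups fitted, on single libraries and on the treatment of GC content. Fitted on the fresh and unstimulated cKO groups alone, 1 of the 10 cKO calls remained, that of Sem1 (adjusted p = 0.0251, limma), beside 7.46% of all genes, and Psmd7 (adjusted p = 0.0737) and Psmd14 (adjusted p = 0.121) were among the 9 calls lost. Without control fresh replicate 1 the count in control cells was 5 (beside 19.3% of all genes), and without control unstimulated replicate 2 it was 6 (beside 20.9%). In cKO cells it was 5 without fresh replicate 1 (beside 17.4%), and 6 without unstimulated replicate 1 (beside 16%) or unstimulated replicate 3 (beside 16.9%). The calls lost most often when 1 library was left out were those of Psmd12 and Psmg1 in control cells and of Psmd13 and Psme2 in cKO cells. When the GC slope entered the model, 19 genes were called in control cells (3 higher, 16 lower, beside 43% of all genes) and 26 in cKO cells (3 higher, 23 lower, beside 45.4%). Myeloid marker sums (5 genes in the table, of which Itgam alone reached the minimum and Csf1r and Adgre1 stayed near 0) moved with culture, from 38.4 to 49 in fresh and 27 to 29.1 in unstimulated control libraries, and from 40.5 to 55 and 27.7 to 34.2 in cKO libraries, on the linear scale. The 4 regulatory T cell markers together went from between 787 and 840 to between 417 and 455 in control libraries, and from between 757 and 879 to between 474 and 507 in cKO libraries. Most of that fall was Ctla4, whose mean log2 value went from 9.12 to 7.88 in control and from 8.92 to 7.84 in cKO cells. Foxp3 went from 6.02 to 5.83 and from 6.05 to 5.83. Il2ra went from 6.14 to 5.95 and from 6.50 to 6.38, and Ikzf2 from 6.87 to 6.39 and from 7.28 to 6.93. The part of the myeloid or regulatory T cell markers in the proteasome results was not tested.

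None of the 3 immunoproteasome genes passed the threshold for culture, stimulation or genotype. Psmb8 had log2 values of 9.60, 10.26 and 10.27 in fresh control, 9.42, 9.02 and 10.33 in fresh cKO, 9.78, 9.97 and 10.30 in unstimulated control and 9.39, 9.72 and 9.21 in unstimulated cKO libraries. After stimulation it had 9.45, 9.93 and 9.92 in control and 9.75, 9.97 and 9.93 in cKO libraries. The unstimulated control libraries lay above the unstimulated cKO ones, and the other groups overlapped between genotypes.

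Psmb10 varied most, with a pooled SD within groups of 0.67, beside 0.05 for Psmd7. Its values ran from 7.06 to 8.03 in fresh control libraries and were 6.88, 6.53 and 8.80 in fresh cKO, 7.59, 7.96 and 8.23 in unstimulated control and 6.47, 7.09 and 6.23 in unstimulated cKO libraries. In stimulated control libraries they were 6.85, 7.99 and 7.39, and in stimulated cKO libraries 7.04, 7.81 and 8.11. Fresh cKO replicate 3 was the highest of all 18 libraries, while the other fresh cKO libraries were among the lowest. Psmb9 had values of 9.18, 9.52 and 9.47 in fresh control and 9.30, 8.82 and 9.61 in fresh cKO libraries. After unstimulated culture it had 9.06, 9.31 and 9.53 in control and 9.06, 9.03 and 8.77 in cKO libraries, and after stimulation 8.81, 9.08 and 9.16 and 8.94, 9.05 and 9.17. The unstimulated control and cKO ranges overlapped. Psmb9 shares its promoter region and 212 bases of exon with Tap1 on the opposite strand. The libraries carry no strand information, so reads in those bases cannot be assigned to either gene.

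The constitutive partners differed in behaviour. Psmb5 had values of 7.13, 7.69 and 7.75 in fresh control and 7.90, 8.11 and 8.28 in unstimulated control libraries, which did not overlap, but the difference of 0.57 ± 0.26 did not pass (adjusted p = 0.1163, limma). In cKO libraries Psmb5 stood at 6.86, 6.62 and 7.83 fresh and at 7.35, 7.40 and 6.97 unstimulated, with overlap. Its stimulated values were 7.47, 8.11 and 7.85 in control and 7.76, 8.10 and 8.20 in cKO libraries. Psmb6 had values of 8.30, 8.71 and 8.74 in fresh control and 8.17, 8.11 and 8.91 in fresh cKO libraries. After unstimulated culture it had 8.58, 8.71 and 8.95 in control and 8.18, 8.28 and 8.09 in cKO libraries, and after stimulation 8.28, 8.82 and 8.50 and 8.48, 8.79 and 8.80. Its unstimulated control libraries lay above the unstimulated cKO ones. Psmb7 had values of 8.97, 8.93 and 8.88 in fresh control and 9.02, 9.20 and 8.87 in fresh cKO libraries. After unstimulated culture it had 8.75, 8.72 and 8.70 in control and 8.81, 8.88 and 8.84 in cKO libraries, and after stimulation 8.93, 8.80 and 8.79 in cKO libraries. Stimulated control replicates 2 and 3 had 8.91 and 8.94, and replicate 1 lay above both. It had the narrowest range of the 3 constitutive genes. Psmb7 shares 405 exon bases with Nek6 on the opposite strand. Psmb8 shares 186 with Gm20496 on the opposite strand, and Psmb5 shares 109 with the miRNA gene Mir686 on the same strand.

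**Figure D3:**
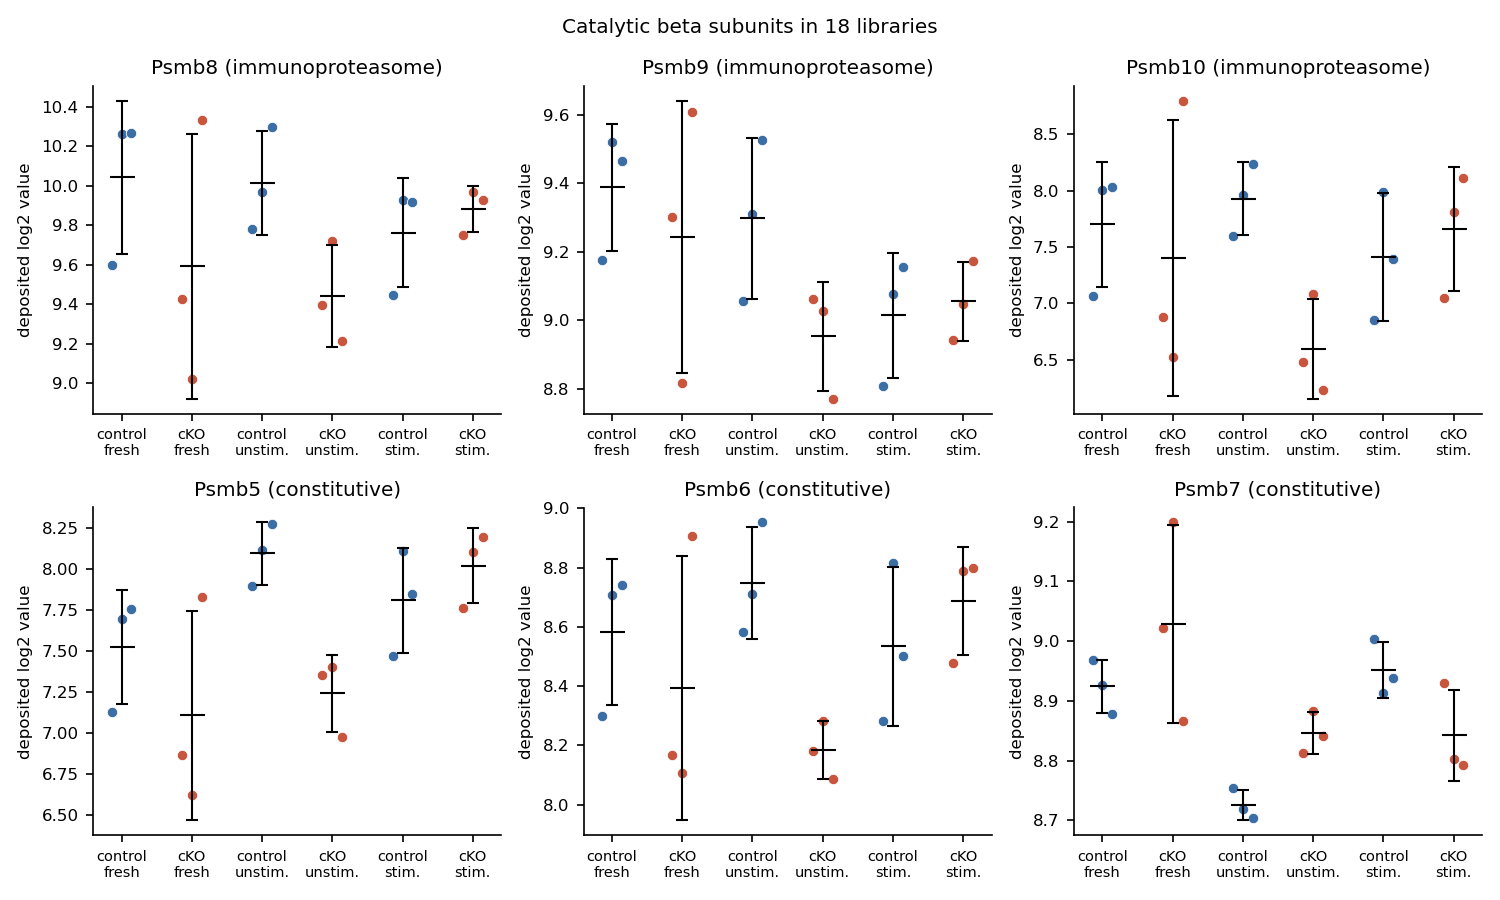
Deposited log2 values (vertical axes) of the 3 immunoproteasome genes (top) and the 3 constitutive genes they replace (bottom) in the 6 groups of 3 libraries; points are libraries and bars are mean and SD. Psmb10 in fresh cKO cells ranges from 6.53 to 8.80, and Psmb8 and Psmb5 show the same replicate 3 as the highest of that group.

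Within a library, the difference between an immunoproteasome gene and the gene it replaces removes shifts common to both. Transcript GC content is close for Psmb8 and Psmb5 (55.77% and 56.62%) and for Psmb9 and Psmb6 (55.25% and 55.76%). It is not close for Psmb10 and Psmb7 (56.52% and 48.71%), so a shift that depends on GC content is not removed from that pair. Psmb8 minus Psmb5 was 2.52 ± 0.05 (SD, n = 3) in fresh control and 2.49 ± 0.08 in fresh cKO cells. After unstimulated culture it was 1.92 ± 0.09 in control and 2.20 ± 0.14 in cKO cells, and after stimulated culture 1.95 ± 0.13 and 1.86 ± 0.13. The lowest fresh library, at 2.40, lay above the highest cultured one, at 2.32, so the fresh and cultured libraries did not overlap in either genotype. In each genotype the pair difference was thus lower in culture, whether or not antibodies were present. Psmb9 minus Psmb6 was 0.81 ± 0.08 in fresh control and 0.55 ± 0.07 in unstimulated control cells, without overlap. In cKO cells it was 0.85 ± 0.25 and 0.77 ± 0.10, with overlap. Psmb10 minus Psmb7 went the other way in control cells, from -1.23 ± 0.59 fresh to -0.80 ± 0.35 unstimulated, with overlap. In cKO cells it was -1.63 ± 1.37 fresh, running from -2.67 to -0.07, and -2.25 ± 0.42 unstimulated. These pair values are a description, and no test was run on them.

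**Figure D4:**
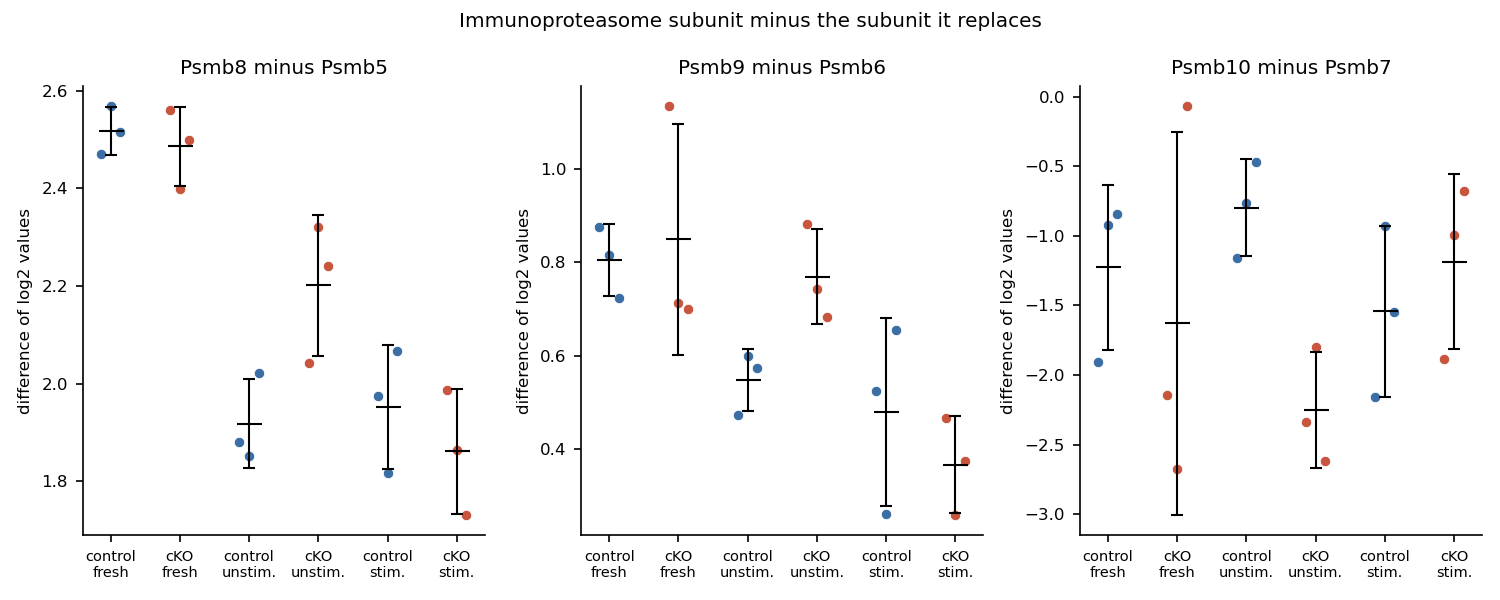
Log2 value of each immunoproteasome gene minus that of the constitutive gene it replaces (vertical axes) in the 6 groups; points are libraries and bars are mean and SD. For Psmb8 minus Psmb5 the 6 fresh libraries lie at 2.40 or above and the 12 cultured libraries at 2.32 or below.

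With the GC slope in the model, Psmb8 (-0.42 ± 0.09, adjusted p = 0.000559, limma), Psmb9 (-0.32 ± 0.09, adjusted p = 0.00802, limma) and Psmb10 (-0.51 ± 0.11, adjusted p = 0.0012, limma) were lower after culture in control cells. In cKO cells Psmb9 (-0.27 ± 0.08, adjusted p = 0.0126, limma) and Psmb10 (-0.75 ± 0.10, adjusted p = 1.11e-05, limma) were lower, and Psmb8 did not pass. Without that term the values in control cells were -0.03 ± 0.27 for Psmb8, -0.09 ± 0.17 for Psmb9 and 0.23 ± 0.49 for Psmb10. The sign of Psmb10 therefore depended on the term. The transcripts of the 3 genes have GC contents between 55.3% and 56.5%, above the median of 49.8% for the 52 genes.

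Regulators of these genes were read from lists of the pathway. Of 10 tested genes of the interferon list, which act on immunoproteasome genes, 8 were called in culture in each genotype, 2 higher and 6 lower, or 80% beside 29% and 22.1% of all genes. Irf1, which drives Psmb8, Psmb9 and Tap1 after interferon, fell by 0.65 in control and by 0.65 in cKO cells (adjusted p = 0.0008323 and 0.0009214, limma). Ifngr1, a chain of the interferon gamma receptor, rose by 0.91 and 0.88 (adjusted p = 3.006e-05 and 4.678e-05, limma). Of 12 genes of MHC class I presentation, 3 fell in control (25%, beside 29% of all genes called) and 2 in cKO cells (16.7%, beside 22.1%) and none rose, so the shares were near or below the background. Nlrc5, the transactivator of class I genes, was among them, at -0.57 ± 0.08 and -0.54 ± 0.08 (adjusted p = 0.0001222 and 0.0002377, limma).

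Of 8 genes that control constitutive proteasome transcription, 5 were called in each genotype, 3 higher and 2 lower, or 62.5% beside 29% and 22.1% of all genes. Nfe2l1 encodes NRF1, which raises proteasome genes when degradation is blocked, and it did not pass (0.36 ± 0.16 and 0.23 ± 0.16). Its relative Nfe2l2 rose by 0.68 and 0.59 (adjusted p = 3.544e-05 and 0.0001553, limma). The small Maf proteins that pair with both went in different directions, Mafg higher by 1.09 in cKO cells and by more in control cells (adjusted p = 0.0002412 and 2.331e-05, limma) and Maff lower, at -1.86 in control and -1.68 in cKO cells (adjusted p = 1.058e-05 and 3.323e-05, limma). Of 17 genes of ubiquitin shuttling and proteasome binding, 5 were called in control (2 higher, 3 lower, or 29.4% beside 29% of all genes) and 6 in cKO cells (1 higher, 5 lower, or 35.3% beside 22.1%). Zfand2a, a zinc finger protein induced by stress that binds the 19S cap, fell most within this list, by -1.56 ± 0.15 and -1.46 ± 0.15 (adjusted p = 2.398e-06 and 5.72e-06, limma). Vcp, the ATPase that extracts ubiquitinated proteins, rose by 0.43 and 0.48 (adjusted p = 0.0005844 and 0.000298, limma). Of 6 genes of ubiquitin and its activation, 1 was called in each genotype (16.7%, beside 29% and 22.1% of all genes), below the background. It was Rps27a, which fell in both (-0.37 and -0.37). Called or not, the difference was below 0 for 3 of the 6 in control and 5 in cKO cells.

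The stretches before the annotated starts of members that fell together, and of members with a core motif of the NRF1 and NRF2 sites, are shown because the data bear on genes that moved together. RefSeq windows (GRCm38.p6) were found for 45 of the 52 genes, and the 250 bases before the start were searched on both strands. The motif TGACNNNGC, the core of those sites, was present in 6 of the 45 genes (13.3%), beside 11.5% of 27025 genes: Adrm1, Psmb5, Psmb6, Psmc6, Psmd12 and Psmd9. CCAAT was present in 35.6% beside 37.5% and GAAA followed by any 2 bases and GAAA (a core of interferon response sites) in 6.67% beside 3.46%. No printed window holds more than 1 match, so none overlap. A match is a description of letters, not evidence of binding. Sequences run from 5′ to 3′ on the strand of the gene, with motif matches in capitals.
Psmd14 (chr2:61711444-61711693, plus strand): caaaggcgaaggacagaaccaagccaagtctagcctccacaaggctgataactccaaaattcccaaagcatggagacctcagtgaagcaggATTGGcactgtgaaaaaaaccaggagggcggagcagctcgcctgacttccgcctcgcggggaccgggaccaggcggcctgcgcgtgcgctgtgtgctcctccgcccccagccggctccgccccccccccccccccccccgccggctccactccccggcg
Psme2 (chr14:55591102-55591351, minus strand): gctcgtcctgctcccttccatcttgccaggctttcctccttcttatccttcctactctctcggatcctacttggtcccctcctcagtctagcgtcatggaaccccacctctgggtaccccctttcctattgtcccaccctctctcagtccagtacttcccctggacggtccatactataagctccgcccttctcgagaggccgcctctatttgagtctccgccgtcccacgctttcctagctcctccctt
Psmb4 (chr3:94886959-94887208, minus strand): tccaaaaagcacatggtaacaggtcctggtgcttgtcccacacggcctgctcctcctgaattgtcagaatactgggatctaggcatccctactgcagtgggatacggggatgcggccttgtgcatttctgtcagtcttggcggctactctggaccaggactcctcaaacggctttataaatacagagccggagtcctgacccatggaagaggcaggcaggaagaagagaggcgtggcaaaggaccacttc
Psmb5 (chr14:54617996-54618245, minus strand): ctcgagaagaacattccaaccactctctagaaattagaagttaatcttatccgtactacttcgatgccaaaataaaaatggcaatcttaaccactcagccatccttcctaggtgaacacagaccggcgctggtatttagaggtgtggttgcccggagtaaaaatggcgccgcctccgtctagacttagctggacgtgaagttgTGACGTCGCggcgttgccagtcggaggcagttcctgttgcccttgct
Psmb6 (chr11:70525107-70525356, plus strand): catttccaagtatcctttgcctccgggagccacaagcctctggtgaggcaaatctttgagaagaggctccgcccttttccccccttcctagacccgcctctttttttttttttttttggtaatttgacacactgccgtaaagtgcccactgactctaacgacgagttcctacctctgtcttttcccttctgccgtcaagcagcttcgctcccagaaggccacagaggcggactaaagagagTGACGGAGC
Psmd14 holds CCAAT on the reverse strand, and Psmb5 and Psmb6 each hold TGACNNNGC, while the Psme2 and Psmb4 windows hold none of the 3 motifs. Psme2 has a second RefSeq start, whose window is not shown. The windows of Psma2, Psmd6 and Psme1, which also fell in both genotypes, are not shown either, and of these Psma2 holds CCAAT.
Psmb8, Tap1 and Psmb9 lie side by side on chromosome 17 in the MHC, and Psme1 and Psme2 lie 5911 bases apart on chromosome 14.

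Stimulated and unstimulated culture were compared to see how these genes differed after 8 h of receptor engagement. No proteasome gene passed in control cells, beside 0.349% of all genes, or in cKO cells, beside 0.285%. At an unadjusted p under 0.05 there were 12 of 52 (23.1%) in control cells, beside 11.3% of all genes, and 18 of 52 (34.6%) in cKO cells, beside 23.1%. The smallest p in control cells was that of Psmd8, the lid subunit Rpn12. It had 9.22, 9.25 and 9.31 unstimulated and 9.49, 9.55 and 9.54 stimulated, without overlap, a difference of 0.26 ± 0.07 that did not pass (adjusted p = 0.144, limma). With the GC slope in the model it passed, at 0.26 (adjusted p = 0.0303, limma), as did 2.92% of all genes. In cKO cells Psmd8 had 9.38, 9.35 and 9.27 against 9.52, 9.54 and 9.38, with overlap. Psmg3, a core assembly chaperone, had the smallest p in cKO cells, with 4.51, 4.91 and 4.44 unstimulated and 5.43, 5.77 and 5.62 stimulated. That difference of 0.99 ± 0.24 did not pass (adjusted p = 0.1155, limma), and in control cells Psmg3 had 5.15, 5.90 and 6.02 against 5.13, 5.69 and 5.50, with overlap. The 95% interval of the stimulation difference for Psmb8 was -0.82 to 0.32 in control and -0.13 to 1.01 in cKO cells, so a difference in either direction could not be told from none at this precision. The interaction of genotype and stimulation was called for no proteasome gene, beside 0.00919% of all genes. Without fresh cKO replicate 3, 3 genes passed in cKO cells (beside 3.09% of all genes) and 11 passed the interaction (beside 15.3%). That library enters both comparisons only through the shared spread and the filter.

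The genotypes were compared in each state to see how these genes differed between them. No proteasome gene passed in fresh cells (beside 0.00919% of all genes), in unstimulated cells (beside 0%), in stimulated cells (beside 0%) or on average over the states (beside 0.0184%). In fresh cells 1 proteasome gene had an unadjusted p under 0.05, beside 3.94% of all genes, and in stimulated cells 2 had one, beside 1.47%. The fresh gene was Sem1, higher in every cKO library (8.67 to 8.71) than in any control library (8.31 to 8.42), at 0.31 ± 0.08 (adjusted p = 0.7895, limma). After unstimulated culture 23 of 52 genes (44.2%) had an unadjusted p under 0.05, beside 33.2% of all genes. Psmg3 was lower in cKO libraries by 1.07 ± 0.24, Psmb5 by 0.85 ± 0.26, and Psmd3, the lid subunit Rpn3, by 0.77 ± 0.20 (each adjusted p = 0.1026, limma). None of the 3 overlapped between the genotypes, which adds no support, since they were picked for the smallest p in this comparison. Psmb10 was lower by 1.33 ± 0.49 and Psmb8 by 0.57 ± 0.27 (adjusted p = 0.1033 and 0.1507, limma), and Psmd11, the lid subunit Rpn6, was higher by 0.36 ± 0.14 (adjusted p = 0.1071, limma), again without overlap.

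These differences varied with the GC content of the transcripts. Across the 52 genes, the cKO minus control difference after unstimulated culture correlated with GC content at r = -0.643 (Spearman -0.713), and across 10803 genes at r = -0.734. These are values across genes, which share the same 6 libraries. Of the 18 genes with the highest GC content, 14 were lower in cKO cells, and of the 18 with the lowest, 3 were. The GC slope of the libraries was 0.15 ± 0.09 (SD, n = 3) in unstimulated control and -0.13 ± 0.06 in unstimulated cKO cells. It was computed from the same values that are tested. Its ranges did not overlap between these groups (0.063 to 0.245 in control and -0.188 to -0.066 in cKO libraries). A genotype difference that goes with GC content is thus taken out by the slope, whatever its source. With that slope in the model, no proteasome gene had a genotype call in fresh (beside 0.00919% of all genes), unstimulated (0%) or stimulated cells (0%), and Psmb8 changed from -0.57 to 0.14 and Psmb9 from -0.34 to 0.06. With library weights, 28 proteasome genes passed in fresh cells, 33 in unstimulated cells and 26 on average, beside 50.7%, 56.3% and 47.6% of all genes. Fitted on the 2 unstimulated groups alone, 22 genes passed, beside 34.4% of all genes. Without fresh cKO replicate 3, 18 passed in unstimulated, 9 in fresh cells and 11 on average, beside 26.1%, 11% and 14.9% of all genes.

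**Figure D5:**
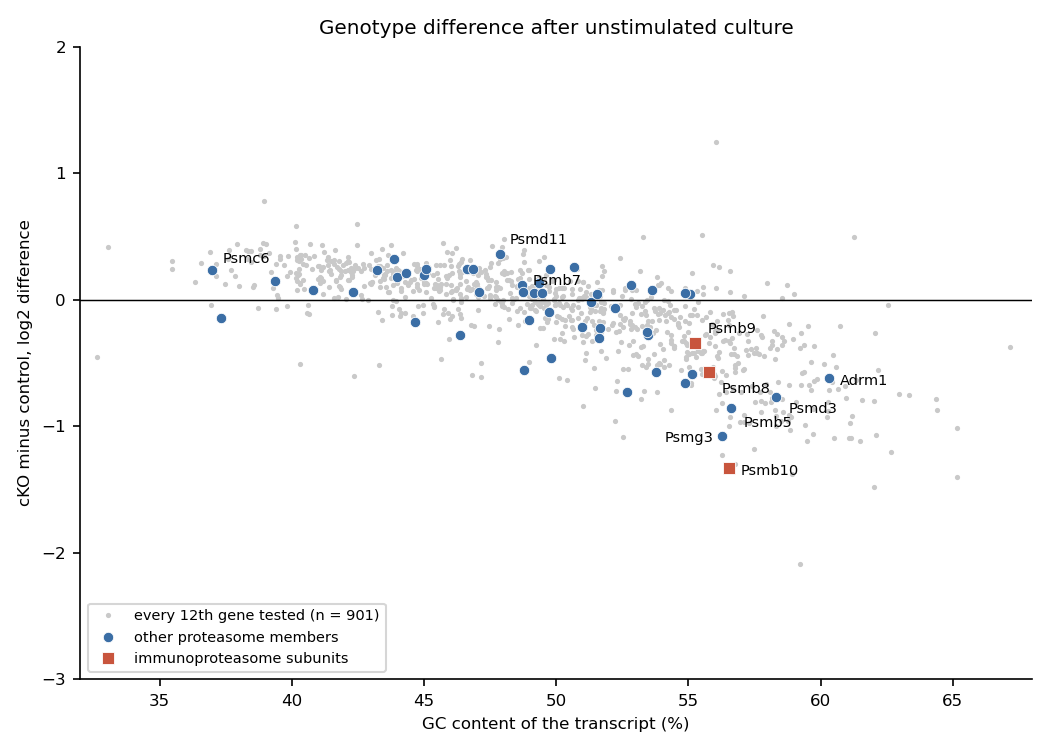
Genotype difference after unstimulated culture (vertical axis, log2, cKO minus control) against the GC content of the transcript (horizontal axis, percent) for the 52 proteasome genes, with every 12th tested gene in grey. The 52 genes fall along the grey cloud (r = -0.643), with Psmb10 lowest at -1.33.

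The mean of the 3 immunoproteasome genes minus the mean of the 49 others gives their balance in a library. It was 0.57 ± 0.20 (SD, n = 3) in unstimulated control and -0.07 ± 0.24 in unstimulated cKO cells, 0.50 ± 0.34 and 0.19 ± 0.74 in fresh cells, and 0.20 ± 0.28 and 0.33 ± 0.24 in stimulated cells. The unstimulated groups did not overlap, with the lowest control library at 0.36 and the highest cKO library at 0.19. The part of the GC slope in this balance was not tested. Exons of 14 of the 52 genes overlap another gene, 10 of them a protein-coding one.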

How the data were processed

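RNA was sequenced in 18 libraries, 6 groups of 3, named in the labels by genotype and condition. Per the labels' protocols, 10 ng of RNA entered each TruSeq version 2 library and 75 bp single-end reads were made. The submitters' processing notes name CASAVA 1.8, HISAT2 2.1.0, SAMtools 1.4, Partek 6.6, DESeq2 and mm10 without saying what each did. The deposited values are log2 normalized values per gene symbol, a scale read from the values themselves, and the sources used here do not give the normalization. They are no counts, so depth is unknown and no counting interval is given. Columns belonging to no sample numbered 0.

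Genes were tested where the linear value reached 10 in at least 3 libraries (10877 of 15137). A model of 6 group means was fitted with limma 3.58.1 (R 4.3.3, trended moderation, 12 residual degrees of freedom), two-sided, with Benjamini-Hochberg adjustment over all genes and a threshold of 0.05. GENCODE M21 (GRCm38) gave transcript length and GC content. Values by library (in 1 group each of Psmb7 and Psmb10 in part or as a range) were given for the 6 catalytic genes and for the largest called changes, or the smallest p where nothing was called. The alternatives changed the filter, pseudocount, scaling, moderation, library weights, block, GC term and libraries. The fitting script was tested on simulated data. The proteasome genes, lists and tests were chosen with earlier results of these data known. One searched promoter motif and a few genes are not reported here.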

Additional observations from a re-analysis of the deposited data

How the results depend on the processing

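The count of proteasome genes called is given here by setting, against 12 for culture in control cells, 10 for culture in cKO cells and 0 for every other comparison. The share of all genes called stands in brackets. Library weights gave 28 (50.7%) for genotype in fresh cells, 33 (56.3%) in unstimulated cells and 26 (47.6%) on average, 17 (24.8%) and 28 (53%) for stimulation in control and cKO cells, 20 (50.3%) and 25 (48.4%) for culture, 34 (54.3%) for the interaction with stimulation and 1 (0.781%) for that with culture. Fitting only the groups compared gave 22 (34.4%) for genotype in unstimulated cells, 13 (21.6%) for stimulation in cKO cells, 1 (7.46%) for culture in cKO cells, with Psmd7 among the calls lost, and 17 (21.8%) for the interaction with stimulation. The GC slope gave 1 (2.92%) for stimulation in control cells, Psmd8, and 19 (43%) and 26 (45.4%) for culture. Quantile normalization gave 6 (20.2%) for culture in cKO cells. An alternative chosen after seeing the data left out fresh cKO replicates 2 and 3, whose GC slopes stood farthest from their group's, and gave 17 (25.7%) for genotype in unstimulated cells, 1 (1.71%) for stimulation in cKO cells and 11 (12.9%) for the interaction with stimulation, with 16 (38%) and 8 (15.5%) for culture. The cause of these changes was not tested.

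Leaving out 1 library at a time gave 0 to 9 for genotype in fresh cells, 0 to 18 in unstimulated cells, 0 in stimulated cells and 0 to 11 on average. It gave 0 for stimulation in control and 0 to 3 in cKO cells, 5 to 16 and 5 to 13 for culture, 0 to 11 for the interaction with stimulation and 0 for that with culture. Among the genes with the largest called changes, Psmc6 lost its culture call in control cells in 5 of 18 such fits, Psmd6 in 2 and Psmd14 in 1. In cKO cells Psmg4 lost it in 5, Psmd6 in 4 and Psmd14 in 3. Other called genes lost it in more fits than any of these, namely Psmd12 and Psmg1 in control cells and Psmd13 and Psme2 in cKO cells. Psmd7 lost it in 0 of the 18 in either genotype. The immunoproteasome mean minus that of the other members ranged over 0.40 to 0.69 and -0.22 to 0.50 in fresh, 0.47 to 0.67 and -0.20 to 0.05 in unstimulated, and 0.08 to 0.35 and 0.23 to 0.46 in stimulated control and cKO cells.

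The labels carry no shared replicate numbers across groups, so the replicate block was the run of library numbers. Libraries of the same run did not deviate together throughout (mean correlation of deviations 0.178, lowest -0.683, 45 pairs). Their mean was nevertheless above that of libraries of different runs and groups (-0.0923, 90 pairs). The samples were not taken as paired in the main fit, and the replicate block served as an alternative. The replicate block gave 6 (8.15%) for genotype in unstimulated and 1 (1.41%) for stimulation in cKO cells, and with the GC slope 1 (2.21%) for stimulation in control and 25 (46%) for culture in cKO cells.

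None of the genes whose direction reversed had been called. The first value is with the GC slope and the second with the replicate block as well. For genotype in unstimulated cells these were 0.14 and 0.15 (Psmb8), 0.062 and 0.10 (Psmb9) and -0.019 and -0.036 (Psmb7). For stimulation in cKO cells they were -0.11 and -0.12 (Psmb8), -0.22 and -0.25 (Psmb9) and 0.10 and 0.12 (Psmb7). For culture in control cells they were -0.51 and -0.49 (Psmb10) and -0.12 and -0.11 (Psmb6). For culture in control cells, quantile normalization gave 0.013 for Psmb8 and library weights -0.013 for Psmb10. In cKO cells, library weights gave 0.0059 for Psmb8, and without fresh cKO replicates 2 and 3 Psmb8 stood at 0.019 and Psmb6 at 0.016. With 1 library left out, Psmb7 for stimulation in cKO cells ran from -0.048 to 0.021. For culture in control cells the ranges were -0.25 to 0.090 (Psmb8), -0.20 to 0.030 (Psmb9) and -0.089 to 0.40 (Psmb10), and in cKO cells -0.43 to 0.22 (Psmb8), -0.11 to 0.50 (Psmb5) and -0.35 to 0.047 (Psmb6). Depth is unknown, so no limit from it can be stated.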
